A study of Mus musculus with 18 samples.

Results

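The nuclear genes for the subunits of the respiratory chain and of ATP synthase were examined in cultured mouse tail tendon fibroblasts (TFs) kept for 4 days in 20% or 1% O2. Members were taken by gene name, as the rows named Nduf followed by a, b, c, s or v and a number (complex I), Sdha to Sdhd (complex II), Uqcr (complex III), Cox5 to Cox8 (complex IV) or Atp5 (complex V), with names holding -ps, rows described as pseudogenes, Ndufa4 and Ndufa4l2 left out. By its name the rule also drops Ndufb1-ps, whose row is described as a complex I subunit and which had 22.2 ± 0.49 CPM in Ctrl 20%. This gave 85 of the 55487 genes measured: 38 of complex I, 4 of complex II, 8 of complex III, 17 of complex IV and 18 of complex V. The name rule does not match cytochrome c, Cyc1, Cox4i1 or the subunits encoded by mitochondrial DNA, so these lie outside it.

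TFs were grown out of tail tendons of mice of both sexes aged 4 to 6 months and profiled by poly-A RNA sequencing in 18 libraries, 3 in each of 6 groups. Ctrl TFs were Cre-negative and labelled wild-type, and were cultured in 20% O2 (Ctrl 20%) or 1% O2 (Ctrl 1%). The study's methods describe Cre-negative Ctrl mice as homozygous for floxed Hif1a. cKO TFs came from mice in which the Scleraxis-Cre (ScxCre) transgene deletes floxed Hif1a in the tendon lineage, and were cultured in 20% O2 (cKO 20%) or 1% O2 (cKO 1%). In the last 2 groups, Ctrl TFs received Cre gesicles, vesicles that carry the recombinase into cells, meant to lower Hif1a in culture, in 20% or 1% O2; the labels still give their genotype as wild-type. The Cre acts only in cells that have expressed Scx, so the cKO cultures need not be free of cells with intact Hif1a. The study used these cultures to ask how TFs answer low O2 and what part of that answer needs HIF-1α, the O2-regulated transcription factor that Hif1a encodes.

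Oxidative phosphorylation takes electrons from NADH (complex I) and succinate (complex II) through complex III to complex IV, where O2 is reduced, and the proton gradient built on the way drives ATP synthase (complex V). Most subunits are encoded in the nucleus and imported, while a few core subunits of every complex except complex II are encoded by mitochondrial DNA. In low O2, HIF-1 is known to move cells toward glycolysis and to exchange single subunits, such as COX4I1 for COX4I2 and NDUFA4 for NDUFA4L2. Some complex IV subunits have a widely expressed form and a form of heart and skeletal muscle, such as Cox6a1 and Cox6a2 or Cox7a2 and Cox7a1.

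Total counts ran from 6857558 to 51806453 per library, the lowest in cKO 1% replicate 1, and the members held 0.623% to 1.08% of them. Hif1a itself was 348 ± 19.6 (SD) CPM (read counts scaled to a common library size, with TMM factors) in Ctrl 20%, 420 ± 63.0 in Ctrl 1%, 377 ± 72.8 in cKO 20%, 443 ± 54.3 in cKO 1%, 362 ± 31.0 in gesicle-treated Ctrl 20% and 384 ± 12.3 in gesicle-treated Ctrl 1% (n = 3 each). The whole-gene count was thus not lower in the groups labelled as deleted, and since such a count also takes reads from a transcript that lacks the floxed exon, it does not check those labels. The study itself reported lower Hif1a by qPCR in cKO tail TFs cultured for longer. Of 10 genes known to rise in low O2, 8 rose in Ctrl TFs, 7 in cKO TFs and 7 in gesicle-treated TFs. The summed level of 10 tendon fibroblast markers lay between 5234 and 14479 CPM in all libraries, and all 10 were above 0 in every library. Of 7 skeletal muscle markers, Ckm was at 0 in all 18 libraries and Myog and Myh4 in 17 each, while Acta1 averaged 24.1 CPM and Des 3.61 CPM. Of 5 macrophage markers, Lyz2 averaged 15.7 CPM, Csf1r 1.11 CPM and Cd68 0.948 CPM, each found in every library. Adgre1 was at 0 in 17 libraries and Ptprc in 11.

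Of the 85 members, 79 had enough counts to be tested; Ndufa11b, Ndufs6b, Cox7b2, Cox8b, Cox8c and a second row of Atp5o did not. Per length, the highest member was Atp5b, the catalytic beta subunit of ATP synthase, with a mean over the 18 libraries of 588 CPM per kb. Next came Cox6a1 with 335 CPM per kb, and the lowest of the tested members was Cox7a1 with 0.50 CPM per kb. The mean level exceeded 1 CPM in 76 members. Levels therefore separated a broad set of strongly expressed subunits from a few complex IV isoforms near the limit of detection, where 3 counts correspond to 0.0579 to 0.437 CPM, depending on the library.

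The promoters of 4 members are shown for their contrast: Sdha, a flavoprotein subunit gene with a level that moved little here; Ndufs8, a complex I core subunit; Cox6a1, the common isoform of complex IV subunit VIa; and Cox7a1, the rare muscle isoform. Each is the 250 bases before the transcript start in RefSeq on GRCm38.p6, 5′ to 3′ on the gene's strand: Sdha at chr13:74350241-74350490 (minus), Ndufs8 at chr19:3912775-3913024 (minus), Cox6a1 at chr5:115348959-115349208 (minus) and Cox7a1 at chr7:30183921-30184170 (plus). Capitals mark the letters TGCGCA, the core of the motif bound by NRF1, and CGGAAG or its reverse complement, a core bound by ETS factors such as GABPA; both factors are known regulators of respiratory genes.
Sdha: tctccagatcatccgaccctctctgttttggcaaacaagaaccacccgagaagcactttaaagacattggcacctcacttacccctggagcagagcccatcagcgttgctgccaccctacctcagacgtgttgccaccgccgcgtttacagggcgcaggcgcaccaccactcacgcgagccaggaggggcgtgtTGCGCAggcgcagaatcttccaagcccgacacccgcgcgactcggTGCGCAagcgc
Ndufs8: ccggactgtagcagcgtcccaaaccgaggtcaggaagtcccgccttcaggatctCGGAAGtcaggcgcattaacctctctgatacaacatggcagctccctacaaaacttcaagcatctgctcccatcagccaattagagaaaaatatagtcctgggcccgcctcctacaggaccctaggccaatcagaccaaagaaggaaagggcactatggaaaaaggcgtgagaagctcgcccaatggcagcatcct
Cox6a1: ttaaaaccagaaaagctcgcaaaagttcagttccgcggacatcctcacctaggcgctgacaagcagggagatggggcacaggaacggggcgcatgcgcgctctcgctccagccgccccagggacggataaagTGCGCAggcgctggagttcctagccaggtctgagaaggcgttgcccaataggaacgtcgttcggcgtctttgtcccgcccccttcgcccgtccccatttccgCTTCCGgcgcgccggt
Cox7a1: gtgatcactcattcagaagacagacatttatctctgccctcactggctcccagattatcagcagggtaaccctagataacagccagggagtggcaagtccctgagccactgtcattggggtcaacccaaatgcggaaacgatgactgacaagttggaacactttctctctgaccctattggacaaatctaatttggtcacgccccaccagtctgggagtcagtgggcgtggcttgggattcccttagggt

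Sdha held the NRF1 core at 2 positions, Ndufs8 the ETS core at 1, Cox6a1 one match of each, and Cox7a1 neither. Windows were given for 67 of the 84 member names. Among these, searched on both strands, TGCGCA was found in 14 (20.9%), against 7.36% of the 27025 genes with a window, and CGGAAG in 22 (32.8%), against 15.3%. The ETS core was in 9 of the 15 windows of complex V. The hypoxia response element core ACGTG stood in 14 (20.9%) of the members and in 18.5% of all genes, and the YY1 core AAGATGG in 1 (1.49%) and 5.18%. For complexes I to V, ACGTG was in 4 of 31, 1 of 3, 1 of 5, 2 of 13 and 6 of 15 windows. The Sdha window printed above held ACGTG or its reverse complement at 1 position, which is not marked. These shares describe letters in the window and no binding was measured.

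In Ctrl TFs the summed level of each complex differed between 20% and 1% O2 by less than the larger of the group SDs. Summed over its members, complex I was 1923 ± 63.5 CPM in Ctrl 20% and 1943 ± 175 in Ctrl 1% (mean ± SD, n = 3, as for all group values). Complex II stood at 733 ± 12.7 and 742 ± 47.7 CPM, and complex V at 2868 ± 94.5 and 2881 ± 280 CPM. In these 3 complexes the O2 difference was smaller than the SD of either group. Complex III went from 648 ± 19.8 CPM in Ctrl 20% to 620 ± 67.4 CPM in Ctrl 1%, and complex IV from 773 ± 33.4 to 795 ± 77.1 CPM. In gesicle-treated TFs the sums in 20% and 1% O2 were 1988 ± 237 and 2002 ± 227 CPM for complex I and 750 ± 60.8 and 748 ± 45.4 CPM for complex II. The cKO libraries in 20% O2 were more spread, with 2399 ± 651 CPM for complex I, against 2298 ± 162 CPM in cKO 1%. In cultures read as a whole, fewer cells of a kind and less RNA per cell cannot be told apart.

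**Figure D1:**
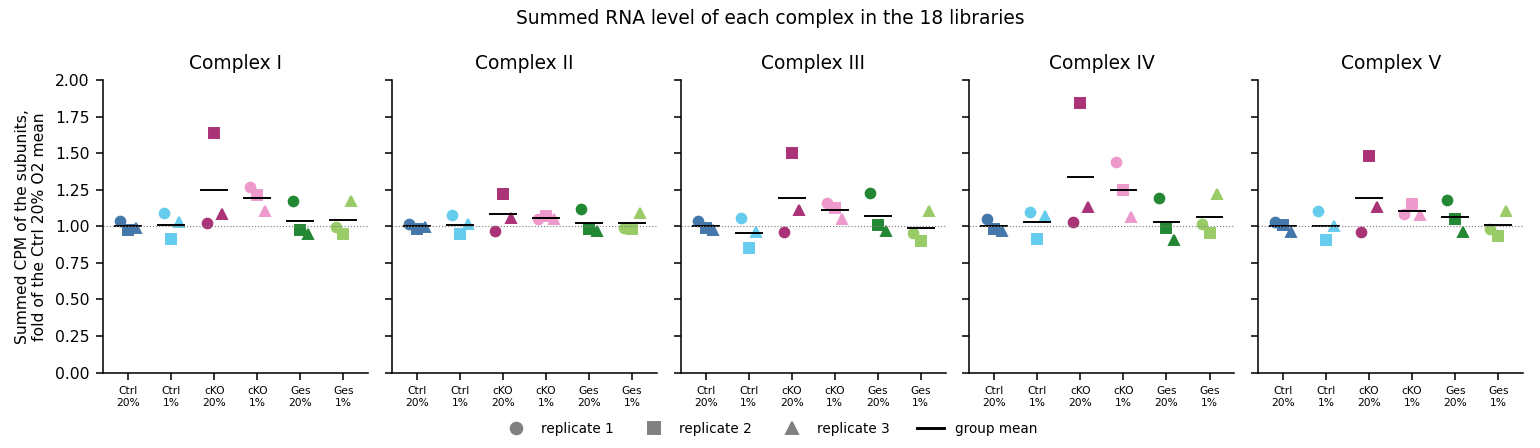
Summed CPM of the members of each complex, as a fold of the Ctrl 20% mean, in the 18 libraries by group (Ges: gesicle-treated Ctrl); each point is a library, its shape the replicate, and the line is the group mean. Ctrl 20% and Ctrl 1% overlap in all 5 complexes, and 1 library of cKO 20% (replicate 2) lies far above the other libraries of its group in all 5 complexes.

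Of the 79 tested members, 1 passed the test between 1% and 20% O2 in Ctrl TFs, Cox6a2, which fell; none rose. Over all 16174 genes tested, 2.42% rose and 0.804% fell in this comparison (edgeR quasi-likelihood test, Benjamini-Hochberg adjusted p under 0.05). In cKO TFs 0 members passed, with 2.53% of all genes rising and 1.40% falling, and in gesicle-treated TFs 0 passed, with 1.93% and 0.989%. At an unadjusted p under 0.05 there were 2 of 79 members in each of the 3 comparisons, beside 17.1%, 21.0% and 17.3% of all genes, and DESeq2 called Cox6a2 in Ctrl and in gesicle-treated TFs and 0 members in cKO TFs. The median log2 fold change of the members was 0.03 in Ctrl, -0.06 in cKO and 0.04 in gesicle-treated TFs, where all genes had -0.01, -0.04 and -0.02. Above 0 lay 48, 26 and 44 of the 79 members, so that no common direction was seen in this fit. The fit with offsets for gene length and GC content, given below, differed in this.

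How large a response could have gone unseen is given by the intervals. In all 3 O2 comparisons the 95% interval of 75 members lay within 1 log2 unit of no change. It reached beyond that in the other 4, the complex IV isoforms Cox6a2, Cox6b2, Cox6c2 and Cox7a1. The split was made by the intervals themselves. The outermost bounds of the 75 were -0.72 and 0.82 in Ctrl, -0.89 and 0.68 in cKO and -0.72 and 0.84 in gesicle-treated TFs. The median standard error was 0.19. For these 75 subunits a change by a factor of 2 lies outside the interval of each gene, whereas smaller changes lie inside many of them.

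**Figure D2:**
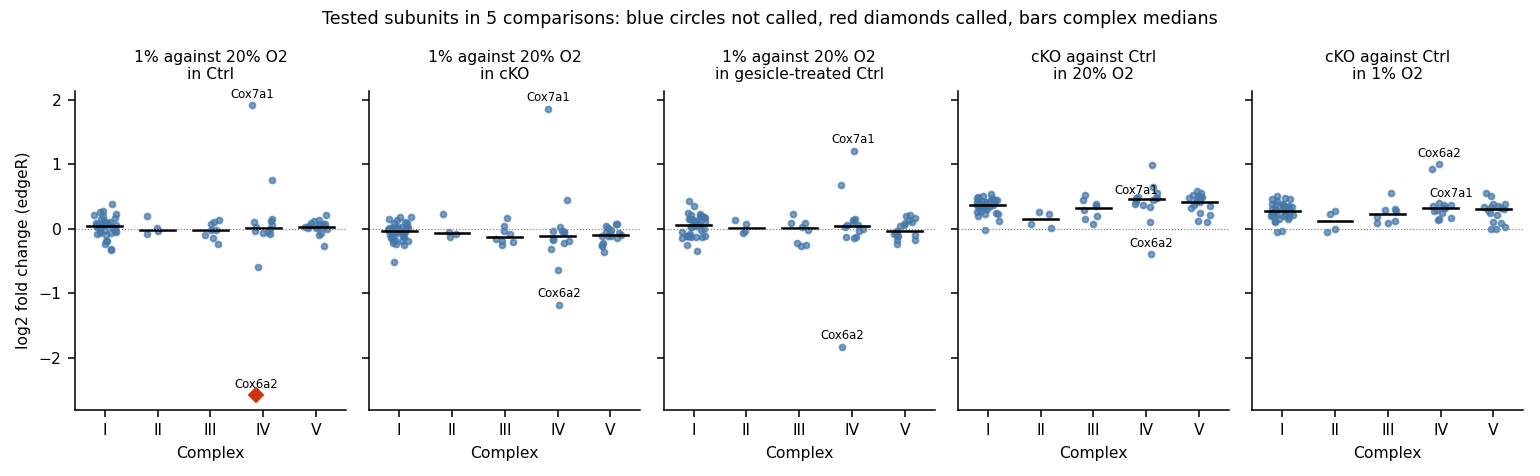
Log2 fold change of every tested member, by complex, between 1% and 20% O2 and between cKO and Ctrl, in 5 panels; each point is a gene, red if it passed, and the line is the median of the complex. The O2 comparisons centre near 0 with a few complex IV isoforms far out, and the cKO comparisons lie above 0 for 77 of 79 members in 20% O2 and 73 of 79 in 1% O2.

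Complex II has 4 subunits, all nuclear. In Ctrl TFs the log2 fold changes with O2 were close to 0 for Sdha, Sdhb and Sdhc (0.00, -0.03 and -0.08), while Sdhd was higher in 1% O2 (0.19). Sdha, the flavoprotein that oxidises succinate, read 357, 363 and 354 CPM in the Ctrl 20% libraries and 379, 340 and 358 CPM in Ctrl 1%. The Ctrl 1% libraries lay on both sides of the Ctrl 20% libraries, with a log2 fold change of 0.00 in Ctrl, -0.13 in cKO and -0.07 in gesicle-treated TFs. Sdhb, the iron-sulfur subunit, had 111 ± 5.73 CPM in Ctrl 20% and 109 ± 17.1 in Ctrl 1%, and the membrane anchor Sdhc 140 ± 8.64 and 133 ± 5.14 CPM. Sdhd, the other membrane anchor, had 124 ± 1.95 and 142 ± 7.09 CPM in Ctrl, and its log2 fold changes were 0.19, 0.23 and 0.13 in Ctrl, cKO and gesicle-treated TFs. The Sdhd groups did not overlap in Ctrl, but the difference missed the adjusted threshold in all 3 comparisons. In cKO TFs Sdhd passed when cKO 20% replicate 2 was left out (log2 fold change 0.47, edgeR adjusted p = 0.0402).

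Among the subunits of the other complexes taken as the nuclear core, none passed in any comparison. Some of these carry redox centres or form the catalytic head, and others, Cox5a and Cox5b of complex IV among them, do not. Atp5b had 1103 ± 27.1 CPM in Ctrl 20% and 1106 ± 121 in Ctrl 1%, and Ndufs1, the large iron-sulfur subunit of complex I, 136 ± 2.17 and 141 ± 9.04 CPM. Their log2 fold changes with O2 ranged from -0.11 to 0.06 over Ctrl, cKO and gesicle-treated TFs. Atp5a1, the alpha subunit of ATP synthase, had 0.01, -0.10 and -0.18, and Atp5c1, its gamma subunit, 0.07, -0.12 and -0.11 in Ctrl, cKO and gesicle-treated TFs. Ndufs3 of complex I had 0.17, 0.11 and 0.10, and Cox5a of complex IV -0.04, -0.32 and -0.14. Ndufs8 (ENSMUSG00000059734; GRCm38 chr19:3908863-3912774, minus strand), a core subunit of complex I that holds iron-sulfur clusters, gave the lowest log2 fold changes of the core. It read 44.6, 36.1 and 40.7 CPM in Ctrl 20% and 36.4, 28.5 and 32.0 CPM in Ctrl 1%, so that 1 library of Ctrl 1% reached into the Ctrl 20% range. In cKO TFs it read 39.2, 69.9 and 47.7 CPM in 20% O2 and 33.2, 38.4 and 37.6 CPM in 1% O2, and in gesicle-treated TFs 50.5, 42.0 and 39.5 against 33.01, 33.1 and 37.6 CPM. The groups did not overlap in either, the 1% O2 libraries being lower. The log2 fold change was -0.33 (adjusted p = 0.367) in Ctrl, -0.52 (adjusted p = 0.112) in cKO and -0.35 (adjusted p = 0.325) in gesicle-treated TFs. Uqcrfs1, the Rieske protein of complex III, had -0.24, -0.25 and -0.25, also short of the threshold.

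These values move with a correction for gene length and GC content. When each library's dependence on both was fitted and taken out as an offset, Ndufs8, Uqcrfs1 and the complex I accessory subunits Ndufa9 and Ndufb9 passed as lower in 1% O2 in all 3 comparisons. For Ndufs8 the log2 fold changes became -0.46, -0.57 and -0.50 (adjusted p = 0.00827, 0.00209 and 0.00509), and for Uqcrfs1 -0.35, -0.39 and -0.31. In all, 8 members fell in Ctrl, 8 in cKO and 5 in gesicle-treated TFs with these offsets and none rose, while 3.04%, 4.25% and 3.57% of all genes fell. Of the 79 members 19, 12 and 19 then had a log2 fold change above 0, beside 47.9%, 46.5% and 48.1% of all genes. The member medians were -0.08, -0.16 and -0.10, where all genes had -0.02, -0.03 and -0.02. The part of library composition in either set of values was not tested.

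The c-ring of ATP synthase is encoded by 3 genes, Atp5g1, Atp5g2 and Atp5g3, whose mature proteins are the same. Atp5g1 read 91.9, 85.8 and 90.4 CPM in Ctrl 20% and 76.6, 68.4 and 76.7 CPM in Ctrl 1%, Atp5g2 36.2 ± 2.24 and 42.01 ± 4.46 CPM, and Atp5g3 153 ± 11.9 and 158 ± 17.1 CPM. The Atp5g1 groups did not overlap in Ctrl but did in cKO and in gesicle-treated TFs, and its log2 fold changes were -0.27, -0.27 and -0.24, none past the threshold. Atp5g2 had 0.22, -0.22 and 0.10, without a common sign.

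The isoforms of complex IV gave the largest log2 fold changes. Cox6a2 (ENSMUSG00000030785; GRCm38 chr7:128205435-128206387, minus strand), the heart and skeletal muscle form of subunit VIa, had 44, 19 and 31 reads in Ctrl 20% and 6, 3 and 7 in Ctrl 1%, or 1.18, 0.561 and 0.943 CPM against 0.166, 0.0894 and 0.181 CPM. The groups did not overlap, and the log2 fold change was -2.58 with a standard error of 0.65 (edgeR adjusted p = 0.0418). In gesicle-treated TFs it was 0.995 ± 0.207 CPM in 20% O2 and 0.278 ± 0.107 CPM in 1% O2, again without overlap, with a log2 fold change of -1.83 (adjusted p = 0.128). In cKO TFs the libraries overlapped, at 0.143, 0.968 and 0.884 CPM in 20% O2 and 0, 0.259 and 0.450 CPM in 1% O2, and the log2 fold change was -1.19 (adjusted p = 0.298). The interaction, which tests whether the O2 response differed between cKO and Ctrl, was 1.40 (adjusted p = 1.00), so a difference between the genotypes was not shown. The call in Ctrl rested on few reads: it was lost when any of the 6 Ctrl libraries was left out (log2 fold change -2.87 to -2.36, adjusted p = 0.0506 to 0.161), in 12 of the 18 fits that left out 1 library of any group, and in a fit of the 12 libraries without gesicles (-2.58, adjusted p = 0.104). The summed level of 7 skeletal muscle markers, mostly Acta1, was 24.5 to 48.1 CPM in Ctrl 20%, 26.7 to 36.0 CPM in Ctrl 1%, 21.5 to 30.8 CPM in gesicle-treated Ctrl 20% and 37.5 to 43.7 CPM in gesicle-treated Ctrl 1%, and the part of these genes in the Cox6a2 values was not tested.

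Cox7a1 (ENSMUSG00000074218; chr7:30184144-30186078, plus strand), the muscle form of subunit VIIa, had 6, 1 and 2 reads in Ctrl 20% and 15, 8 and 13 in Ctrl 1%. The Ctrl groups did not overlap, with mean levels of 0.0838 and 0.330 CPM, but the log2 fold change of 1.91 missed the threshold (adjusted p = 0.243). In cKO TFs it was 1.85 (adjusted p = 0.204) and in gesicle-treated TFs 1.20 (adjusted p = 0.469). The read counts of these libraries were 1, 11 and 1 in cKO 20% and 4, 7 and 23 in cKO 1%, so that 1 library of cKO 20% held most of its group's reads. Cox6b2, known as a form of testis, had 2.64 ± 0.965 CPM in Ctrl 20% and 4.47 ± 0.955 in Ctrl 1%, with a log2 fold change of 0.76 (adjusted p = 0.308). In the common forms the groups differed by less than their SD: Cox6a1 had 172 ± 9.09 CPM in Ctrl 20% and 180 ± 23.4 in Ctrl 1%, and Cox7a2 had 55.8 ± 2.85 and 57.0 ± 4.8 CPM. The log2 fold changes of Cox6b1, Cox7b, Cox8a and Cox7a2l in Ctrl were 0.15, -0.01, 0.10 and -0.09. Per length, Cox6a1 averaged 335 CPM per kb over all libraries and Cox6a2 0.788 CPM per kb, so the fall of the muscle form took away a very small share of subunit VIa transcripts.

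**Figure D3:**
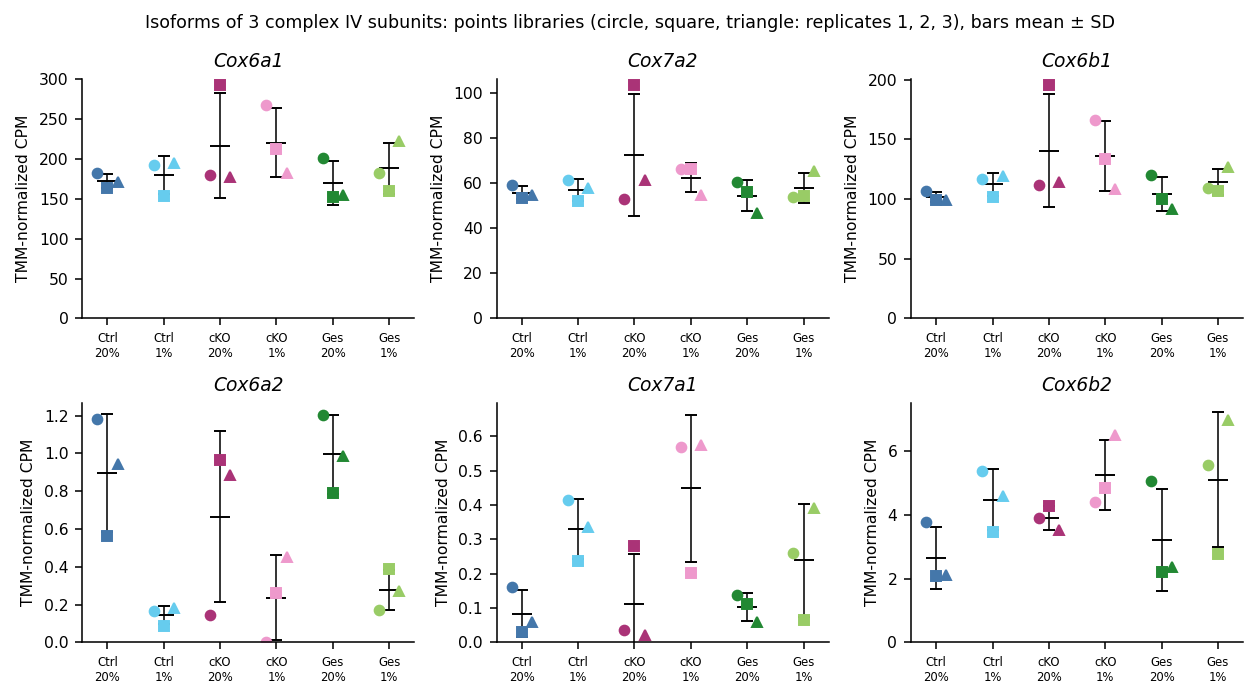
TMM-scaled CPM of complex IV isoforms in each library, by group, each gene on its own linear axis from 0; each point is a library and bars are mean ± SD. Cox6a2 lies lower in Ctrl 1% than in all Ctrl 20% libraries (0.145 against 0.895 CPM on average) while Cox6a1 has 172 and 180 CPM in the same groups.

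Genes outside the members give the scale of an O2 response in these cells. Cox4i2, the low-O2 form of complex IV subunit 4, read 0.161, 0.295 and 0.274 CPM in Ctrl 20% and 2.04, 2.29 and 3.32 CPM in Ctrl 1%, and its log2 fold changes were 3.38, 4.06 and 4.14 in Ctrl, cKO and gesicle-treated TFs. Ndufa4l2 went from 1.84 to 78.7 CPM in Ctrl, from 2.47 to 115 CPM in cKO and from 1.61 to 58.2 CPM in gesicle-treated TFs, with log2 fold changes of 5.42, 5.53 and 5.18. All 6 values passed the test. Their counterparts did not: Cox4i1 had 199 ± 6.47 CPM in Ctrl 20% and 177 ± 15.5 in Ctrl 1%, a log2 fold change of -0.17, and Ndufa4 had -0.35. Thus both low-O2 forms rose in cells labelled cKO as well, and neither differed between cKO and Ctrl in 20% or 1% O2 by the test.

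Between cKO and Ctrl in 20% O2 the members shifted upward together, most of it in 1 cKO library, as given below. The member medians lay 0.01, 0.83 and 0.14 above the Ctrl 20% mean (log2) in cKO 20% replicates 1 to 3. By edgeR and by DESeq2, 0 members passed the adjusted threshold. The log2 fold change was above 0 for 77 of 79 members, with a median of 0.37, against 0.04 over all genes. The unadjusted p was under 0.05 for 32 members, all higher, where 8.04% of all genes were higher and 7.30% lower at that level. The libraries of the 2 groups did not overlap for 24 members, all higher in cKO, beside 10.7% of all genes higher and 10.3% lower. After adjustment 0.272% of all genes were higher and 0.284% lower. By complex the median was 0.37 for complex I, 0.15 for complex II, 0.32 for complex III, 0.46 for complex IV and 0.42 for complex V. In this fit complex II had the lowest median and complex IV the highest, an order that did not hold with offsets for GC content and length, where the medians were 0.09, 0.03, 0.03, 0.10 and 0.14 for complexes I to V.

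The member with the smallest p was Cox6c, an accessory subunit of complex IV. It read 67.4, 68.3 and 66.5 CPM in Ctrl 20% and 79, 150 and 86.7 CPM in cKO 20%. All cKO libraries were above all Ctrl libraries, and replicate 2 of cKO was far above the other two, with a log2 fold change of 0.64 and a standard error of 0.20 (edgeR adjusted p = 0.166). Ndufv2, which carries an iron-sulfur cluster of complex I, read 87.2, 148 and 92.3 CPM in cKO 20% against 78.6 ± 2.50 CPM in Ctrl 20%, and the accessory subunit Ndufa6 30.2, 55.7 and 32.7 CPM against 27.4 ± 1.33 CPM. The log2 fold changes were 0.47 and 0.53. In both genes the same library stood highest. Sdha read 358, 380 and 392 CPM in cKO 20%, with a log2 fold change of 0.07, and Ndufs1 had -0.02.

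A single library carried most of this shift. In cKO 20% replicate 2 the complex sums were 1.64, 1.22, 1.5, 1.84 and 1.48 times the Ctrl 20% mean for complexes I to V. In replicate 1 they were 0.960 to 1.03 times and in replicate 3 1.06 to 1.13 times that mean. Without replicate 2, the median of the members in cKO against Ctrl in 20% O2 was 0.09, with 63 of 79 above 0 and 0 members at an unadjusted p under 0.05, beside 8.22% of all genes in that fit. The same library bears on the O2 comparison in cKO TFs, whose median went from -0.06 with it to 0.19 without it, with 62 of 79 above 0 and 2 members, Cox7a1 (3.77, adjusted p = 0.0271) and Sdhd (0.47, adjusted p = 0.0402), then passing as higher in 1% O2, beside 4.79% of all genes.

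In 1% O2, cKO TFs were also higher than Ctrl TFs in most members. The log2 fold change was above 0 for 73 of 79 with a median of 0.29, against 0.01 over all genes, and 0 members passed by edgeR or DESeq2, where 0.0556% of all genes were higher and 0.0309% lower. At an unadjusted p under 0.05 there were 8 members, all higher, beside 7.10% of all genes higher and 10.7% lower, and for 29 members, all higher, the libraries did not overlap, beside 12% and 15.0%. Atp5j, a peripheral stalk subunit of ATP synthase, read 125, 103 and 119 CPM in Ctrl 1% and 218, 154 and 138 CPM in cKO 1%. Uqcrb of complex III read 91.4, 80.0 and 95.9 CPM in Ctrl 1% and 181, 117 and 96.2 CPM in cKO 1%. In both the cKO libraries were higher without overlap, and replicate 1 was the highest, with log2 fold changes of 0.56 (edgeR adjusted p = 0.221) and 0.56 (adjusted p = 0.233). Ndufs4, an accessory subunit of complex I, had 33.04 ± 0.884 CPM in Ctrl 1% and 46.0 ± 5.20 in cKO 1%. As a fold of the Ctrl 20% mean, the complex IV sums were 1.44, 1.25 and 1.06 in cKO 1% and 1.10, 0.915 and 1.07 in Ctrl 1%, and the complex II sums 1.05, 1.07 and 1.05 against 1.08, 0.946 and 1.01. Both sums overlapped between the genotypes, as did those of complexes III and V. The complex I sums did not overlap, at 1.27, 1.22 and 1.10 in cKO 1% and 1.09, 0.912 and 1.03 in Ctrl 1%. Without replicate 1, the shallowest library, the median was 0.22, with 77 of 79 above 0 and 0 members at an unadjusted p under 0.05, beside 9.93% of all genes.

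Transcript length moved with the genotype values. Over the 76 members with a mean above 1 CPM, Spearman's rho between transcript length and the cKO difference (log2) was -0.56 in 20% O2 and -0.40 in 1% O2, a description over genes that share the same libraries. The 51 members shorter than 1000 bases had medians of 0.41 and 0.30, and the 25 longer ones 0.24 and 0.22. Sdha, of 2900 bases, and Atp5b, of 1916 bases, are among the long ones, with 0.07 and 0.11 in 20% O2. With the GC content and length offsets the median of all members was 0.09 in 20% O2, 64 of 79 being above 0, and 0.01 in 1% O2, 46 of 79 being above 0. In cKO 20% replicate 2, the deviation of all genes from the Ctrl 20% mean also fell with length, with a rho of -0.63, against -0.05 and -0.26 in the other replicates of its group and -0.48, -0.49 and -0.37 in cKO 1%. Such values were not limited to cKO libraries: rho was -0.48 in gesicle-treated Ctrl 1% replicate 3, -0.38 in gesicle-treated Ctrl 20% replicate 1 and -0.34 in Ctrl 1% replicate 1, and over the 76 members it was -0.46 for the O2 change in Ctrl. The summed tendon markers were 10805 to 12797 CPM in Ctrl 20% and 5234 to 10120 CPM in cKO 20%, and the summed skeletal muscle markers 24.5 to 48.1 and 12.5 to 17.98 CPM. The tendon sum is mostly Col1a1 and Col1a2; singly, 7 of the 10 tendon markers had a log2 fold change above 0 (median 0.19), and Dcn (1.97, adjusted p = 0.0113) and Lum (3.44, adjusted p = 0.0131) rose. Of the skeletal muscle markers Acta1 fell (-1.28, adjusted p = 0.0143), and the 2 Schwann cell markers tested had a median of 1.93, with 0 passing. The part of length, of library composition and of these markers in the member values was not tested.

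**Figure D4:**
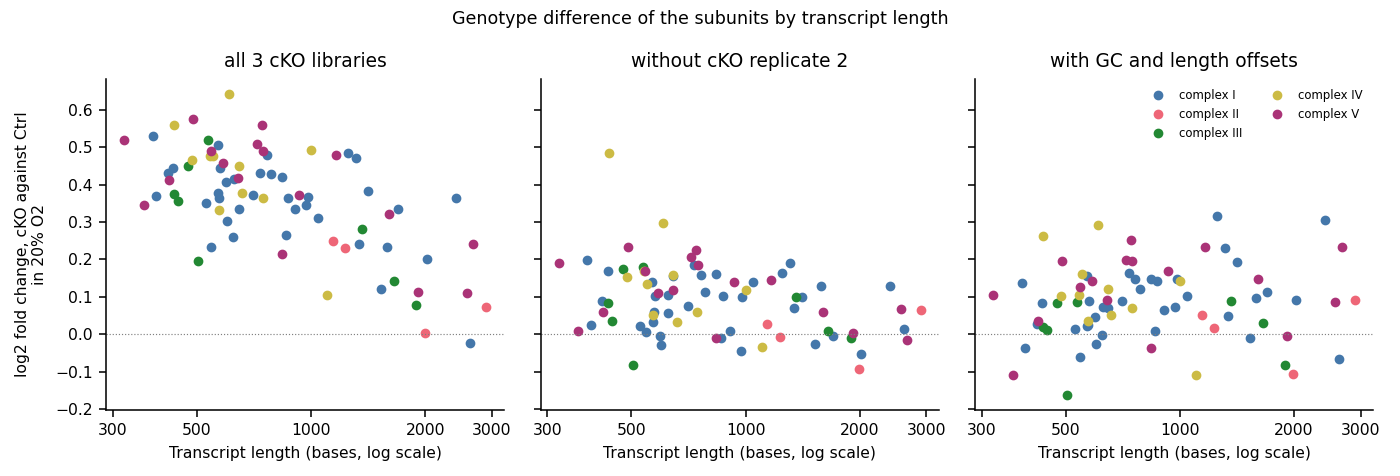
Log2 fold change of cKO against Ctrl in 20% O2 for the 76 members with a mean above 1 CPM, against transcript length on a log scale, in the fit of all libraries, without cKO 20% replicate 2 and with the GC content and length offsets; each point is a gene, coloured by complex. Short and long members have medians of 0.41 and 0.24 in the first panel, 0.10 and 0.06 in the second and 0.09 and 0.09 in the third.

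Other abundant transcripts shifted with the members. A list of 12 mitochondrially encoded subunits, which leaves out mt-Cytb because its name did not match the list's pattern, had a median log2 fold change of 0.85 in 20% O2 and 0.73 in 1% O2, all 12 above 0, with 0 passing. Their summed level was 2392 to 2796 CPM in Ctrl 20%, and 2893, 6688 and 3675 CPM in the cKO 20% libraries. Replicate 2 was again far above its group. The complex III subunit mt-Cytb read 765, 1528 and 802 CPM in cKO 20% against 605 ± 61.1 CPM in Ctrl 20%, with a log2 fold change of 0.77 (edgeR adjusted p = 0.136). The 85 tested cytosolic ribosomal protein genes, short and abundant messages without a part in respiration, had medians of 0.40 and 0.25 and were above 0 in all 85 in both. Medians were 0.24 and 0.20 for the mitochondrial ribosomal proteins, 0.21 and 0.17 for the respiratory assembly factors and 0.08 and 0.10 for the tricarboxylic acid cycle enzymes.

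**Figure D5:**
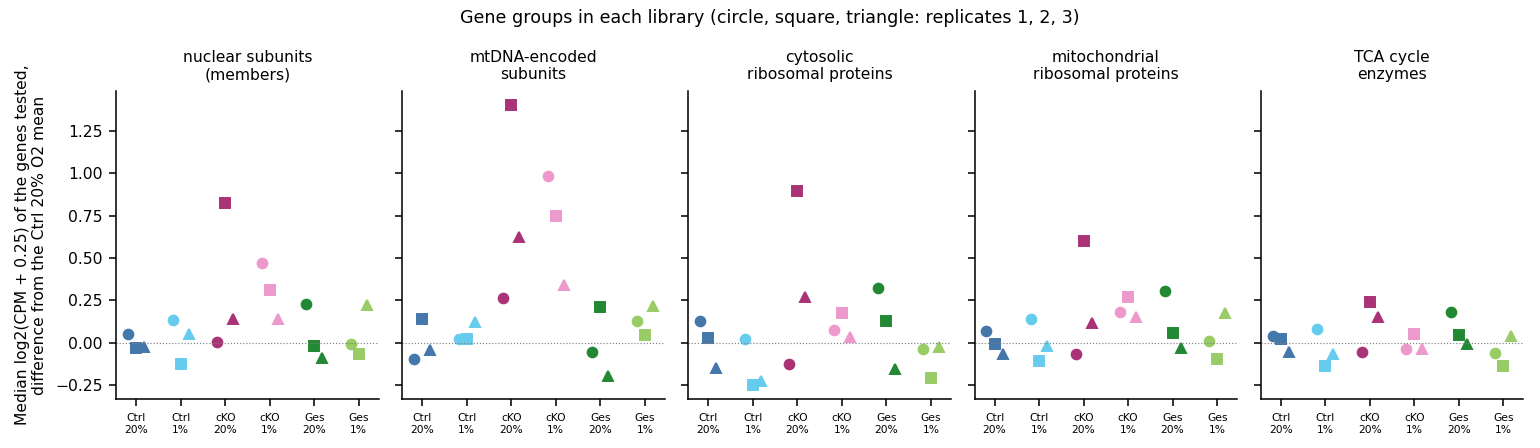
Median deviation from the Ctrl 20% mean, on the log2(CPM + 0.25) scale, in each library for the 79 tested subunits and for 4 other gene lists; each point is a library. The subunits of cKO 20% replicate 2 stand at 0.83, against 0.01 and 0.14 in the other 2 libraries of its group, and the mitochondrially encoded and ribosomal lists move the same way.

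With Cre gesicles no member passed. In 20% O2 the median log2 fold change of gesicle-treated against untreated Ctrl TFs was 0.05, with 55 of 79 above 0, and in 1% O2 0.05, with 63 of 79 above 0. By edgeR and by DESeq2 0 members passed in either and 0 reached an unadjusted p under 0.05, beside 3.67% of all genes at that level in 20% O2 and 2% in 1% O2, while 0.0247% of all genes, in either direction, passed in 20% O2 and 0.00% in 1% O2. The smallest p in 20% O2 belonged to Ndufs7, a core subunit of complex I, with 34.4 ± 0.516 CPM in untreated and 42.8 ± 8.27 CPM in treated TFs and a log2 fold change of 0.31 (adjusted p = 1.00). The O2 response did not differ by the test either, between cKO and Ctrl (0.00% of all genes) or between treated and untreated Ctrl (0.00%), with 0 members at an unadjusted p under 0.05 in both, beside 2.73% and 1.5% of all genes, and median differences of -0.08 and -0.01. The median standard error of these differences was 0.26, so a modest difference in response would not have been seen.

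Around the subunits, single genes of the pathway passed with O2. Higd1a, a small inner membrane protein that binds complex IV, rose in all 3 comparisons, from 45.0 ± 2.32 to 97.2 ± 9.38 CPM in Ctrl, from 59.5 ± 18.1 to 128 ± 29.7 CPM in cKO and from 44.1 ± 5.14 to 79.1 ± 6.54 CPM in gesicle-treated TFs. It was the only one of the 52 tested assembly factors to pass. Among the 14 tested regulators of respiratory genes, Mxi1, an antagonist of Myc, rose in all 3 comparisons, with log2 fold changes of 0.65, 0.78 and 0.54, and Tfb1m, a methyltransferase of mitochondrial ribosomal RNA, rose in cKO (0.68, adjusted p = 0.0294). Of the 13 tricarboxylic acid cycle enzymes, Dlst, a subunit of the 2-oxoglutarate dehydrogenase complex, fell in cKO (-0.43, adjusted p = 0.00818) and in gesicle-treated TFs (-0.32, adjusted p = 0.0447), and Suclg2, a succinyl-CoA ligase subunit, fell in gesicle-treated TFs (-0.40, adjusted p = 0.0410). Of the 12 mitochondrially encoded subunits on the list 0 passed in an O2 comparison by edgeR, and 0 reached an unadjusted p under 0.05; for mt-Cytb the log2 fold changes were 0.01, -0.10 and 0.11.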

How the data were processed

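RNA was measured in 18 libraries of mouse tail TFs by paired-end sequencing. Per the labels and the study's methods, the authors trimmed reads with cutadapt 4.8, checked them with FastQC 0.11.8 and MultiQC 1.20, aligned them with STAR 2.7.8a to GRCm38 and estimated counts per gene with RSEM 1.3.3. The deposited values are estimated counts rounded to whole numbers, with no normalization, and estimated counts share out reads between near-identical genes: 9 members have a pseudogene row, whose reads may be split. Poly-A capture can change the level of mitochondrially encoded transcripts, and RNA fragmentation can change the balance of short and long messages. The labels and the methods give different serum concentrations for the cultures.

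Members and gene lists were chosen with earlier results of these data known. The genes named are the members with the smallest p or called, all of complex II, the nuclear core subunits, the isoforms, the highest and lowest member per length, Hif1a and a few counterparts outside the members; mt-Cytb, Ndufb1-ps and single marker genes were named after their values were seen. Groups follow the labels. Counts were scaled by TMM (factors 0.962 to 1.03) and tested with edgeR 4.0.16 (R 4.3.3; limma 3.58.1), by the quasi-likelihood F test in 1 fit of the 18 libraries, without a block, over the 16174 genes kept by filterByExpr, and p-values were adjusted by Benjamini-Hochberg over all of them; a gene passed at an adjusted p under 0.05. Standard errors are the log2 fold change over the root of F, and 95% intervals use the moderated degrees of freedom. CPM values are TMM-scaled. The median of a list over its members is a description without a test. Lengths are from GENCODE M21. The scripts were tested on simulated counts, with 200 changed genes drawn from all those tested. There edgeR found 6 of 67 genes changed by a factor of 1.5, 26 of 67 by 2 and 51 of 66 by 4, so many modest changes go uncalled. No pair among the 18 libraries, within or between groups, agreed within sampling noise (smallest chi-square per degree of freedom 15.3). The methods give a sample size of 3 for the mice, Ctrl and cKO TFs being from different mice, and the labels do not say which libraries share one. For the parallel ATP assay the methods give mostly female Ctrl and mostly male cKO mice. The p-values measure the spread between libraries, and the floor of 3 counts covers counting error only. Alternatives were DESeq2 1.42.0, other scalings, filters and sets of libraries, offsets for GC content and length (splines, 4 degrees of freedom), a replicate block, and leaving out each library. Same-numbered libraries deviated together, with every correlation over 0.1, in the O2 comparison of Ctrl TFs (0.27, 0.30 and 0.46). The same held in gesicle-treated against untreated Ctrl TFs (0.35, 0.46 and 0.41 in 20% O2, and 0.26, 0.19 and 0.28 in 1% O2). In the O2 comparison of cKO TFs the correlations were all positive, at 0.096, 0.092 and 0.37, and each remaining comparison held a value below 0.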

Additional observations from a re-analysis of the deposited data

How the results depend on the processing

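The count of members that passed moved with these settings. In Ctrl TFs the O2 count of 1 became 2 at an unadjusted p under 0.05, 0 with a filter of 1 CPM (Cox6a2 was then not tested), 0 in the fit of 12 libraries, 8 with the GC content and length offsets and 6 with the offsets and the replicate block. In cKO TFs 0 became 2, 8 and 8 at an unadjusted p, with the offsets and with the offsets and the block; in gesicle-treated TFs 0 became 2, 5 and 5, and 1 by DESeq2. For cKO against Ctrl the unadjusted p gave 32 members in 20% O2 and 8 in 1% O2. The median of cKO against Ctrl was 0.0883 with the offsets and 0.0876 with the offsets and the block in 20% O2, and 0.0101 and 0.00957 in 1% O2. The causes were not tested. The replicate block alone changed no count of members (Cox6a2 in Ctrl: adjusted p = 0.0452). Leaving out 1 library gave 0 to 1 members in Ctrl, 0 to 2 in cKO and medians of -0.20 to 0.19 for O2 in cKO, 0.0894 to 0.52 for cKO against Ctrl in 20% O2, 0.21 to 0.37 in 1% O2 and -0.21 to 0.18 for the interaction with cKO. Of 271 values of a member count over all alternatives, 244 stayed within 1.5 times the reported count, which was 0 in every comparison but that of O2 in Ctrl TFs. Under 2 other scalings, 60 of 60 summed levels moved by less than 1 SD between replicates. For named genes, 14 of 11609 values lost the call, 37 gained one, and 0 called values changed sign. Only a result called in the main fit can lose its call, and most were not called. Among values called in neither fit, 887 changed sign. Over all genes the offsets raised the O2 counts from 521 to 1201 in Ctrl, from 637 to 1390 in cKO and from 472 to 1237 in gesicle-treated TFs, and DESeq2 gave 1064, 1346 and 1059.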
